A study of Homo sapiens with 4 samples.

Results

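Shoulder peaks are H3K27ac peaks defined here by a midpoint downstream of a start site, with or without another peak at that site. They were taken from the 2 peak lists on chromosomes 1 to 22 as every peak whose midpoint lay 1000 to 5000 bp downstream of the nearest protein-coding start site of GENCODE release 44, in the gene's direction, with no protein-coding start site within 1000 bp. There were 4262 such peaks among the 63051 autosomal peaks of control cells (sgCtrl) and 2995 among the 49412 of *SNHG1*-depletion cells (sgSNHG1), or 7257 of 112463 in all. Each list came from 2 ChIP-seq samples of SK-N-BE(2)C, a neuroblastoma (NB) cell line with amplified *MYCN* in the adrenergic (ADRN) state. The sgCtrl cells had received Cas9 with a non-targeting guide RNA and are labelled wildtype. The sgSNHG1 cells, labelled *SNHG1* knockout, had received Cas9 with a pair of guide RNAs against the locus of the long non-coding RNA *SNHG1*. Per the labels of both groups, cells were selected with puromycin and sorted singly into clones. Per the study's text the control is a single clone and several depletion clones were selected. Which depletion clones went into the ChIP-seq is not given in the sources used here. A difference between the groups cannot be told apart from a difference between clones.

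H3K27ac is an acetyl group on lysine 27 of histone H3, placed by the acetyltransferases CBP and p300, read by BET proteins and removed by histone deacetylases. At an active promoter it flanks the nucleosome-free start site and, at strongly transcribed genes, spreads into the first exon and intron. A separate peak in that stretch can be the far end of a broad promoter domain or an enhancer within the gene, which the position alone does not separate. In NB, the transcription factors of the core regulatory circuitry (CRC) are known for broad H3K27ac domains.

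The authors pooled both samples of a group before they called peaks with MACS2, so the lists hold no value per sample. The spread between replicates is therefore unknown, and what follows sets sgCtrl beside sgSNHG1 without a test. Intervals are 95% intervals for counting error only (Wilson for shares, exact binomial for ratios and for medians). Each peak carries a fold enrichment (its summit divided by the background around it) and a p-value as −log10 p, and "highest" below ranks peaks by −log10 p. The number of fragments over the summit and the local background were recovered from both values. The depth per sample is unknown. The lowest background in the autosomal lists was 4.89 fragments in sgCtrl and 4.66 in sgSNHG1, a ratio of 0.952. It would follow the depth of a pooled library where no input library was used, which is not known. The *SNHG1* gene overlapped 1 peak in sgCtrl, with 76 fragments, and 0 in sgSNHG1. All 5 CRC genes examined had a promoter peak in both lists, as had 16 of 20 ADRN and 19 of 33 mesenchymal (MES) transcription factor genes. Of all 18765 protein-coding autosomal genes, 11459 had one in both lists.

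The windows that carry the named results are shown first. Each is the 300 bases around a summit of GRCh38, read 5′ to 3′ on the strand of the gene, and none touches an annotated UTR. Capitals mark exact matches, on either strand, to short motifs. GATA factors recognise AGATAA. The E-box of MYC and MYCN with MAX is CACGTG. Other E-boxes searched were CAGCTG, of neural basic helix-loop-helix factors, and the related CATCTG. Homeodomain factors recognise TAATTA, AP-1 recognises TGANTCA, and SP and KLF factors the GC box GGGCGG. ETS factors recognise CCGGAAG and NF-Y recognises CCAAT. A match is a description of letters and not a bound site. The highest shoulder peak of both lists was that of *MYCN*, the amplified oncogenic transcription factor, with its summit at the same base in both. Its window (chr2:15942438-15942737, plus strand) lay wholly in coding sequence, with a GC content of 81.0%, 49 CpG dinucleotides and 3 GC boxes.

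MYCN: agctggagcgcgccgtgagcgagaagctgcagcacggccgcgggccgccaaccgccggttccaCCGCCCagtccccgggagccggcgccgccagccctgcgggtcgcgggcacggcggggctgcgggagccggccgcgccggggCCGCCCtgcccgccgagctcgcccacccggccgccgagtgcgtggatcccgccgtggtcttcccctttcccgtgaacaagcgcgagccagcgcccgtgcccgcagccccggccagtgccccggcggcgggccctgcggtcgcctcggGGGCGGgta

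The next pair stand for peaks that only 1 list held, with no peak of the other list within 1000 bp. They are the second-ranked of each list, since the windows of the first-ranked, *NUTM2D* and *PLEC*, are not printed here. *SERTAD1*, which encodes a regulator of CDK4, stands for sgCtrl (chr19:40423142-40423441, minus strand, coding sequence, 12 CpG and 1 AP-1 match). *HDGF*, which encodes a heparin-binding growth factor, stands for sgSNHG1 (chr1:156746809-156747108, minus strand, intronic, 4 CpG and 0 matches).

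SERTAD1: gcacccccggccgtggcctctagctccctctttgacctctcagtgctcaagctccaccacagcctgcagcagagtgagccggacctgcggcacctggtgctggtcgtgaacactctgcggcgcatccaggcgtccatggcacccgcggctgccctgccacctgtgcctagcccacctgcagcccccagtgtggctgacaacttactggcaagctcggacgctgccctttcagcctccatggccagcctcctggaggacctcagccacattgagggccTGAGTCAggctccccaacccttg

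HDGF: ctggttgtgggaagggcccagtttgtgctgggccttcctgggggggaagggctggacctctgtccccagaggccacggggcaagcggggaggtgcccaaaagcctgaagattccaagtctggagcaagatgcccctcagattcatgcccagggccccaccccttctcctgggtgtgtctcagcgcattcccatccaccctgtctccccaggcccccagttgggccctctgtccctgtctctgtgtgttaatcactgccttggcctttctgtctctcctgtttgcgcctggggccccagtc

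The last windows belong to shared peaks with the most unequal fragments. *LRRTM1*, which encodes a synaptic adhesion protein (chr2:80302559-80302858, minus strand, coding sequence, 32 CpG), had the lowest ratio of sgSNHG1 to sgCtrl among windows of 1 genome copy that touch no UTR. *ZIC5*, which encodes a zinc finger transcription factor of the neural tube (chr13:99968176-99968475, minus strand, 32 CpG and 1 CCAAT match), had the highest. Both windows are centred on the sgCtrl summit.

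LRRTM1: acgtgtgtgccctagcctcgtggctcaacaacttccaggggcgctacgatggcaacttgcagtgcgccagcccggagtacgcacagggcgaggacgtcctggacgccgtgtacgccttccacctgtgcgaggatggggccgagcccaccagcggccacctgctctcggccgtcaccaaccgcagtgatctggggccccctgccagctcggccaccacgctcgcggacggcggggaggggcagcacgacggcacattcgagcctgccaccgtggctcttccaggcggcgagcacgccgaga

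ZIC5: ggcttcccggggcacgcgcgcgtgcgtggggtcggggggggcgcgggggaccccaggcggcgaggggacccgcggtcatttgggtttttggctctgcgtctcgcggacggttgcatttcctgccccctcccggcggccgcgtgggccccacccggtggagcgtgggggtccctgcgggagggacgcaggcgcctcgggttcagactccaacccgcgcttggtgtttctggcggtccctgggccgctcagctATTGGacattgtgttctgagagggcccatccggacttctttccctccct

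Shoulder peaks were fewer in *SNHG1*-depletion cells, while peaks at start sites were nearly as many. The sgSNHG1 list held 0.703 times as many shoulder peaks as the sgCtrl list (interval 0.67 to 0.737), or 29.7% fewer. Promoter peaks, within 1000 bp of a start site, numbered 15875 and 15646, a ratio of 0.986 (0.964 to 1.01). The shoulder ratio lay beside that of the upstream flank, the peaks 1000 to 5000 bp upstream (0.687, interval 0.648 to 0.729), and that of distal peaks beyond 5000 bp (0.719, interval 0.708 to 0.73). The shortfall was of like size on both sides of start sites and far from them. Shoulder peaks made up 6.76% of the sgCtrl list (6.57% to 6.96%) and 6.06% of the sgSNHG1 list (5.85% to 6.28%).

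The shoulder ratio depended on how the lists were cut. With the sgCtrl list reduced to its 49412 highest autosomal peaks by −log10 p, those of at least 10.6, it held 3213 shoulder peaks and the ratio became 0.932 (0.887 to 0.98). Under the same reduction the ratio was 0.918 for the upstream flank, 0.967 for distal peaks and 1.1 for promoter peaks. Equal list sizes fix the ratio over all peaks, so lower ratios in some classes require higher ones in others. The thresholds were also unlike, since sgSNHG1 peaks were kept down to a −log10 p of 6.0. With a −log10 p of at least 10 required in both lists, the shoulder ratio was 0.638 (0.604 to 0.674). The part of list length in the shortfall was not tested.

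Shoulder peaks lay on the downstream side more often than their mirror image upstream. In sgCtrl there were 1.56 shoulder peaks for each upstream flank peak (1.49 to 1.64) and in sgSNHG1 1.6 (1.51 to 1.69). Peak numbers per 250 bp were lower farther from the start site. The 250 bp from 1000 bp downstream held 529 peaks in sgCtrl and 428 in sgSNHG1. The last 250 bp before 5000 bp held 176 and 116. The ratio of the lists was 0.79 (0.716 to 0.871) in the 500 bp nearest the start site, and 0.636 (0.538 to 0.751) in the 500 bp farthest from it, with intervals that overlap. Upstream the same bins gave 0.739 and 0.667. Peaks just inside and just outside the limits had similar heights. Those at 900 to 1000 bp had a median of 71.5 fragments in sgCtrl and 61 in sgSNHG1, and those at 1000 to 1100 bp 63 and 55. At 4900 to 5000 bp the medians were 68.5 and 67.5, and at 5000 to 5100 bp 72 and 60.

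**Figure D1:**
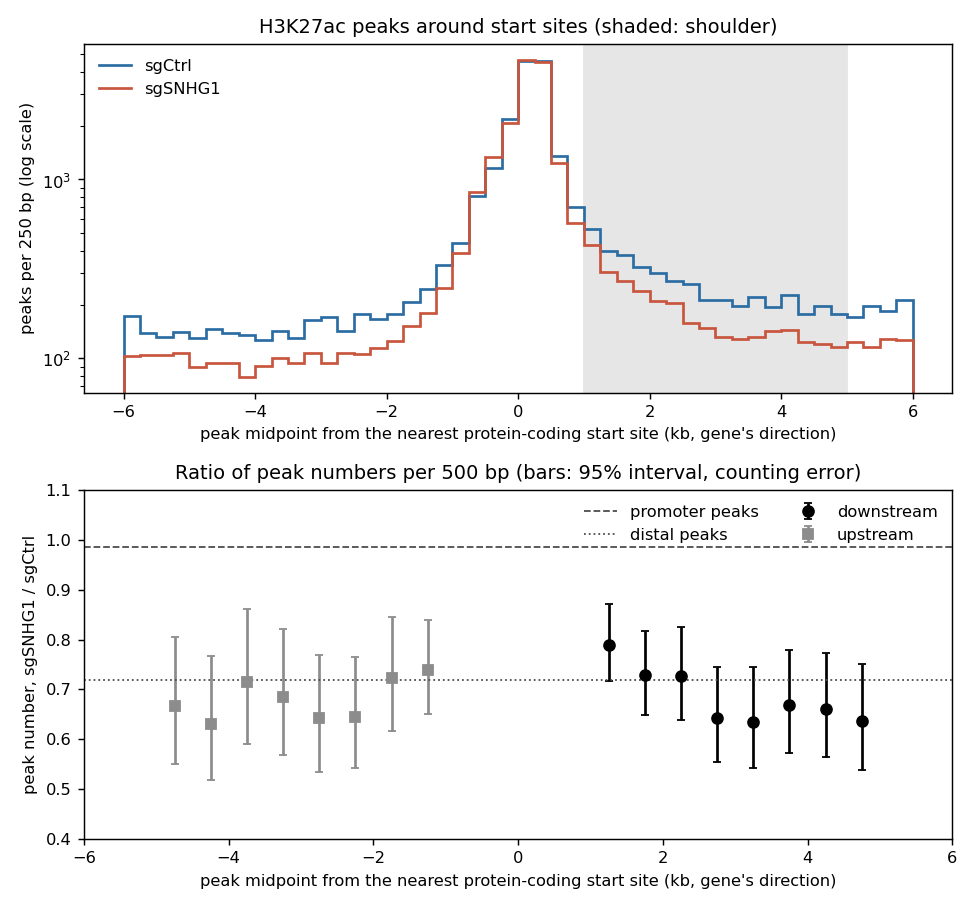
Upper plot: autosomal peaks per 250 bp (log axis) by the distance of the midpoint from the nearest protein-coding start site, with the shoulder shaded. Lower plot: ratio of peak numbers, sgSNHG1 to sgCtrl, per 500 bp, with 95% counting intervals and lines at the ratios of promoter peaks (0.986) and distal peaks (0.719). The sgSNHG1 line runs below the sgCtrl line throughout the shoulder, and the ratios on both sides lie between 0.631 and 0.79.

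Within genes, shoulder peaks lay mostly past the first exon. In sgCtrl 37.3% had their midpoint in intron 1 of the nearest transcript, 22.8% in a later intron, 22.5% in a later exon, 4.25% in exon 1 and 13.1% beyond the end of a short transcript. In sgSNHG1 the shares were 40.2%, 20.5%, 21.2%, 4.37% and 13.7%. The median midpoint in intron 1 lay 1869 bp past the first splice donor in sgCtrl and 1752 bp in sgSNHG1, and 2.14% and 3.16% of them lay within 500 bp of it. A start site of a non-coding gene lay within 500 bp of 3.97% and 4.57% of shoulder peaks, against 7.55% and 8.87% of all autosomal peaks.

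A shoulder peak stood on high ground. Its median summit held 70 fragments in sgCtrl and 61 in sgSNHG1, near the 75 and 76 of promoter peaks and above the 48 and 43 of distal peaks. Its local background was the highest of the classes, 23.1 and 20 fragments against 12.9 and 12.8 for promoter and 11.8 and 10.7 for distal peaks. The fold enrichment was the lowest, 2.93 and 2.95, against 5.07 and 5.33 at promoters and 3.63 and 3.64 at distal peaks. Upstream flank peaks were alike, with backgrounds of 21.1 and 18.2 and fold enrichments of 3.01 and 3.07. MACS2 takes the local background from the fragments around a peak where no input is given. The part of a neighbouring promoter in these backgrounds was not tested. An input library is not named in the sources used here. Shoulder peaks ranged from 19 to 14812 fragments in sgCtrl and from 18 to 11551 in sgSNHG1. Their median length was 381 bp and 347 bp. In sgCtrl 20.2% of them and in sgSNHG1 27.5% had a −log10 p below 10, and 27 and 21 had one above 100.

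Only part of the shoulder peaks had a companion, another peak of the same list that covered the start site to which they were assigned or had its midpoint within 1000 bp of it. It was present for 50.9% of them in sgCtrl (49.4% to 52.4%) and 49.0% in sgSNHG1 (47.2% to 50.8%). Those with a companion were higher and on a higher background, at 82 fragments over 29.3 in sgCtrl against 59 over 17.9 without one, and at 70 over 24.5 against 52 over 15.6 in sgSNHG1. The ratio of peak numbers was 0.677 (0.633 to 0.723) with and 0.73 (0.683 to 0.78) without a companion, with intervals that overlap. The median gap between a shoulder peak and its companion was 1503 bp in sgCtrl and 1197 bp in sgSNHG1, and 18.2% and 23.7% of them lay within 500 bp of it.

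Seen by gene, 3048 of 18765 protein-coding autosomal genes (16.2%) had a shoulder peak in sgCtrl and 2255 (12.0%) in sgSNHG1. Of these, 817 and 529 had at least 2. Among the 11459 genes with a promoter peak in both lists, 1353 had a shoulder peak in both (11.8%), 835 in sgCtrl alone (7.29%, interval 6.83% to 7.78%) and 271 in sgSNHG1 alone (2.36%, interval 2.1% to 2.66%). Promoter peaks of genes with a shoulder peak had more fragments but a lower fold enrichment than those of other genes. The medians were 93 against 69 fragments and 3.68 against 5.66-fold in sgCtrl, and 87 against 73 fragments and 3.89 against 5.8-fold in sgSNHG1.

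Of the sgCtrl shoulder peaks, 54.3% (52.8% to 55.8%) were overlapped by an sgSNHG1 peak, by 1 bp or more. Of the sgSNHG1 shoulder peaks, 79.5% (78.1% to 80.9%) were overlapped by an sgCtrl peak. The 45.7% of sgCtrl shoulder peaks without a partner stand beside 38.7% of all autosomal sgCtrl peaks. The 20.5% of sgSNHG1 shoulder peaks without one stand beside 20.6% of all, which is the background share. Promoter peaks gave 14.2% in sgCtrl and 13.2% in sgSNHG1, and distal peaks 47.1% and 24.6%. In both lists the shoulder shares without a partner were close to those of the upstream flank, at 46.0% and 20.5%. Where a partner existed, it was itself a shoulder peak for 94.6% of sgCtrl and 94.8% of sgSNHG1 peaks, and a promoter peak for 4.76% and 4.03%. Requiring an overlap of 50% of both peaks gave overlapped shares of 42.7% and 60.5%, and allowing a gap of 500 bp gave 60.7% and 85.4%.

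Overlap followed height. All sgCtrl peaks were divided by −log10 p into a low (below 12.0), a middle and a high class (above 19.6) of equal size. Of sgCtrl shoulder peaks, 25.8% of the low class were overlapped (23.7% to 28.0%), 58.8% of the middle (56.3% to 61.1%) and 92.7% of the high class (90.9% to 94.1%). The upstream flank gave 26.7%, 55.4% and 92.9% in the same classes, while promoter peaks gave 48.3%, 76.9% and 98.9%. Among sgSNHG1 shoulder peaks, divided alike by the sgSNHG1 list, the shares were 68.3%, 84.0% and 95.5%. Promoter peaks of sgSNHG1 gave 58.2%, 75.9% and 96.8%, below the shoulder in the low and middle classes. GC-rich shoulder peaks were overlapped more often. In low, middle and high classes of GC content over the 300 bases around the summit, again of equal size, 42.5%, 49.1% and 69.4% of sgCtrl shoulder peaks were overlapped. The ratio of shoulder peak numbers was 0.737 in the low, 0.64 (0.593 to 0.689) in the middle and 0.757 in the high class, and the upstream flank and distal peaks were also lowest in the middle class, at 0.618 and 0.645.

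Shoulder peaks shared 1 to 1 between the lists, 2062 pairs, had a median of 82 fragments in sgCtrl and 63 in sgSNHG1. The median of all 36494 shared autosomal pairs was -0.2 on the log2 scale, and relative to that shift the shoulder pairs had a median log2 ratio of -0.13 (-0.15 to -0.12), with 66.4% of them below 0. Upstream flank pairs had -0.12 and distal pairs -0.11, while promoter pairs had 0.24. The shoulder median was -0.38 relative to promoter pairs, -0.26 relative to the lowest background, a scale chosen after seeing the data, and -0.07 with 1 start site per gene. Large differences were rare among these pairs, which hold only peaks that passed in both lists. A peak that changed strongly can drop out of 1 list and then forms no pair. Of sgCtrl shoulder peaks, 45.7% had no partner. A relative log2 ratio of -1 or lower was found in 7 shoulder pairs (0.339%, against 0.375% of all pairs) and of 1 or higher in 6 (0.291%, against 1.02% of all). With a companion at the start site the median was -0.14 and without one -0.13.

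**Figure D2:**
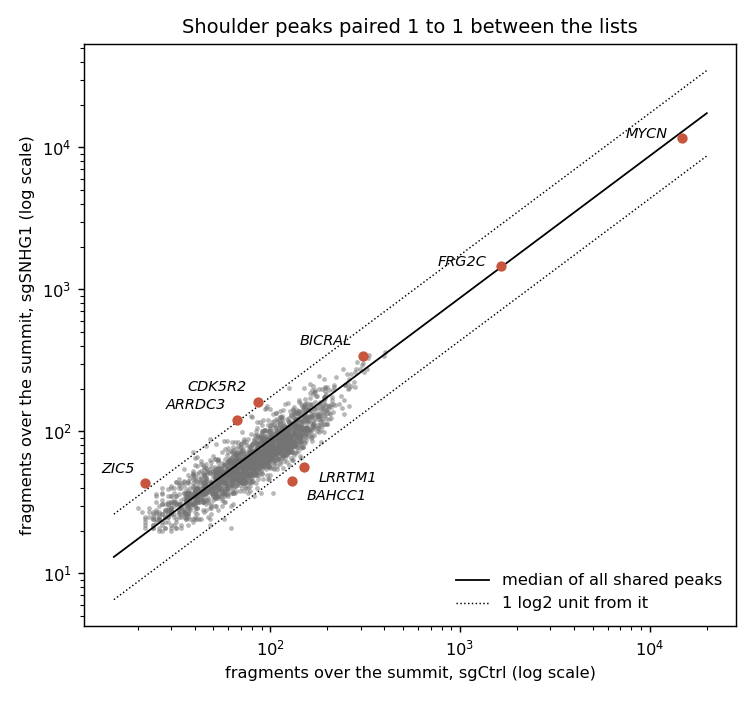
Fragments over the summit of the shoulder peaks paired 1 to 1 between the lists, on log axes, with the median of all shared autosomal peaks as a line and 1 log2 unit from it dotted. Most points lie just below the line, *MYCN* (14812 and 11551 fragments) and *FRG2C* stand far above the rest, and the labelled genes at the dotted lines are those with the most unequal fragments.

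The 5 shared shoulder peaks of highest −log10 p in each list included 4 in common, those of *MYCN*, *FRG2C*, *BICRAL* and *ZFHX3*. The *MYCN* peak (chr2:15940580-15943304 in sgCtrl) was 2725 bp long and began 14 bp past the start site, with 14812 fragments over a background of 2519.4 in sgCtrl and 11551 over 2034.7 in sgSNHG1. It was the highest autosomal peak of each list, in a cell line that carries the locus in many copies, and its relative log2 ratio was -0.16. *FRG2C* (chr3:75668890-75669636), a member of a family of near-identical copies, had 1647 and 1457 fragments, which are uncertain, since a filter on reads of several hits is not given for the ChIP-seq and its 30-base pieces occurred a median of 23 times in the genome. *BICRAL*, which encodes a subunit of a BAF chromatin remodelling complex, had 308 fragments in sgCtrl and 342 in sgSNHG1, a relative log2 ratio of 0.35. *ZFHX3*, a zinc finger and homeobox factor of neuronal differentiation, had 316 and 339, a ratio of 0.3. *IGF2BP3*, an oncofetal RNA-binding protein, had 400 and 340 (-0.04), and *ANP32B*, a histone chaperone gene, 333 and 347 (0.26). These 4 single-copy peaks outside the *MYCN* locus lay in intron 1, 1047 to 1460 bp from a start site. Their GC content was 77.3% to 81.3%.

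Peaks found in 1 list alone were lower. In sgCtrl the highest with no sgSNHG1 peak within 1000 bp were those of *NUTM2D*, *SERTAD1*, *CNOT6*, *CASZ1* and *EMID1*, with 55 to 122 fragments and fold enrichments of 3.24 to 10.2. *SERTAD1* had 65 fragments over 10.5. *CNOT6*, a deadenylase of the CCR4-NOT complex, had 55 over 7.72 with the nearest sgSNHG1 peak 35854 bp away. *CASZ1*, a zinc finger transcription factor, had 122 over 37. *NUTM2D* belongs to a family of copies and had 59 fragments over the lowest background of the list, 4.89.

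In sgSNHG1 the highest with no sgCtrl peak within 1000 bp were those of *PLEC*, *HDGF*, *FGL1*, *POU2F1* and *LFNG*, with 48 to 241 fragments. *PLEC*, which encodes the cytoskeletal linker plectin, had 239 fragments over 63.2, and *HDGF* 241 over 75.1. Both peaks were short, 388 and 277 bp, and the nearest sgCtrl peak lay 1234 and 1601 bp away. *LFNG*, a glycosyltransferase that modifies Notch, had 103 over 32.6. The *POU2F1* window occurred in many copies (a median of 280 for its 30-base pieces), so its 48 fragments are uncertain.

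Among shared shoulder peaks with at least 30 fragments in 1 list, the lowest relative log2 ratios belonged to *PLGRKT* (62 fragments in sgCtrl and 21 in sgSNHG1, -1.36), *BAHCC1* (130 and 45, -1.33), *VEZT* (103 and 37, -1.28), *LRRTM1* (151 and 56, -1.23) and *SEC63* (89 and 37, -1.07). The windows of *PLGRKT*, *VEZT* and *SEC63* had several genome copies. Of the single-copy pair, *BAHCC1* encodes a chromatin protein with a BAH domain and *LRRTM1* a postsynaptic adhesion protein. The highest ratios belonged to *ZIC5* (22 and 43, 1.17), *CDK5R2* (86 and 161, 1.1), *KDM6B* (48 and 89, 1.09), *SV2C* (39 and 72, 1.08) and *ARRDC3* (67 and 120, 1.04). The *ZIC5* peaks were unlike in extent, chr13:99968277-99968485 in sgCtrl and chr13:99968277-99969260 in sgSNHG1. Their midpoints lay 3386 and 2998 bp downstream, over backgrounds of 4.92 and 9.18. The lowest background of the sgCtrl list was 4.89. *CDK5R2* encodes a neuronal activator of CDK5, *SV2C* a synaptic vesicle protein and *KDM6B* a demethylase of trimethylated H3K27. With 21 to 161 fragments in 1 pooled list each, these ratios have no replicate check.

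All 5 CRC genes examined had a shoulder peak in both lists, 6 peaks in sgCtrl and 8 in sgSNHG1, against 16.2% and 12.0% of all genes. These genes encode transcription factors that hold the ADRN state, and the study chose them, so the count is a description. Outside *MYCN* their shoulder peaks were modest. *HAND2*, a basic helix-loop-helix factor of the sympathetic lineage, had 117 fragments in sgCtrl and 86 in sgSNHG1, beyond the transcript's end (chr4:173525203-173525426, -0.25). The gene lies on chromosome 4, where the ratio of all peaks was the lowest of the autosomes, at 0.579. *ISL1*, a LIM homeodomain factor, had 73 and 70 in a later exon (chr5:51387515-51387772, 0.14). *GATA3*, a zinc finger factor, had 113 and 127 in intron 1 (chr10:8061798-8062066, 0.37), a second sgCtrl peak of 94 next to it, and a second sgSNHG1 peak of 118 beside another of its start sites. *TBX2*, a T-box factor, had 173 and 122 in a later intron (chr17:61404226-61404860, -0.31).

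The 2 additional sgSNHG1 peaks, of *TBX2* and *MYCN*, had sgCtrl peaks over or near them. The second *TBX2* peak, 193 fragments, 1180 bp downstream, overlapped an sgCtrl promoter peak that ran from 80 to 1345 bp past the start site, a span that the sgSNHG1 list held as a promoter peak and this shoulder peak. The second *MYCN* peak had 2576 fragments over a background of 2056.1, a fold enrichment of 1.25, the lowest of all shoulder peaks, and lay 428 bp from the nearest sgCtrl peak.

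Of 20 ADRN transcription factor genes, 10 had a shoulder peak in sgCtrl and 8 in sgSNHG1, and all 8 were among the 10. The shares were 50.0% and 40.0%, beside 16.2% and 12.0% of all genes. Over all genes, 1869 of the 2255 with a shoulder peak in sgSNHG1 also had one in sgCtrl. Of the 3048 with one in sgCtrl, 1179 had none in sgSNHG1. *SOX4* and *SOX11*, HMG-box factors of neuronal progenitors, carried theirs in exon 1, with 285 and 307 fragments for *SOX4* (0.31) and 253 in both lists for *SOX11* (0.2). *TFAP2B*, an AP-2 factor of the sympathetic lineage, had 162 and 172 in intron 1 (0.28). *SIX3*, a homeobox gene, had 245 fragments in a peak of 2597 bp in sgCtrl and 130 in a peak of 1328 bp in sgSNHG1, which held 2 *SIX3* shoulder peaks, so these are not a pair. *INSM1* and *KLF7* had a shoulder peak in sgCtrl alone.

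Of 33 MES transcription factor genes, 7 had one in each list (21.2%, beside 16.2% and 12.0% of all genes), 6 of them in both. Over all genes, 1869 of the 2255 in sgSNHG1 were in both. *TCF7L2*, the Wnt effector, had 151 and 202 fragments (0.62), *TWIST1* 132 and 143 (0.31), *SOX9* 62 and 50 (-0.11) and *MAML2*, a Notch coactivator, 40 and 48 (0.46). *SMAD3* had one in sgCtrl alone and *RUNX2* in sgSNHG1 alone.

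Of 22 immediate early genes, 6 had a shoulder peak in sgCtrl and 5 in sgSNHG1, or 27.3% and 22.7% beside 16.2% and 12.0% of all genes. *IER2* had 283 and 273 fragments in exon 1 (0.15). *JUNB* had 126 and 201 beyond the transcript's end (0.87). *NR4A1*, an orphan nuclear receptor gene, had 4 shoulder peaks in sgCtrl, the highest with 141 fragments, and 2 in sgSNHG1, the highest with 122. *JUN* had one of 218 fragments in sgCtrl, 1019 bp downstream and thus just inside the limit, and none by the rule in sgSNHG1, although an sgSNHG1 peak overlapped it.

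Some genes for the enzymes of histone acetylation carried several shoulder peaks. Of 21 autosomal genes of deacetylases, acetyltransferases and BET proteins, 7 had 18 peaks in sgCtrl and 6 had 11 in sgSNHG1. These genes were 33.3% and 28.6% of the list, beside 16.2% and 12.0% of all genes. The class IIa deacetylase gene *HDAC4* had 6 and 4, the highest with 134 and 111 fragments (-0.07), and *HDAC7* had 4 and 2, the highest with 102 and 67 (-0.41). *HDAC10* had 1 in each list, with 155 and 143 (0.08). *KAT8*, the acetyltransferase of H4 lysine 16, had 1 of 96 fragments in sgCtrl alone. *BRD3* also had 1 in sgCtrl alone, and *KAT2A* had 1 in sgSNHG1 alone.

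Of 15 genes of catecholamine synthesis and chromaffin granules, 4 had a shoulder peak in sgCtrl and 3 in sgSNHG1, or 26.7% and 20.0% beside 16.2% and 12.0% of all. *TH*, the rate-limiting enzyme of catecholamine synthesis, had 155 and 97 fragments (-0.48), and *DDC*, which makes dopamine from L-DOPA, 56 and 54 (0.15). *CYB561*, a granule cytochrome, had a peak of 266 in sgCtrl, 1023 bp downstream and overlapped by an sgSNHG1 peak that was not paired with it 1 to 1. Its shoulder peak in sgSNHG1 had 109 fragments, against 126 for the sgCtrl partner of that peak (-0.01), in a window of several genome copies. *PTPRN* had one of 82 in sgCtrl alone. Of 31 autosomal axon guidance genes, 8 had one in sgCtrl (25.8%, beside 16.2% of all genes) and 5 in sgSNHG1 (16.1%, beside 12.0%), and the highest belonged to the semaphorin co-receptor gene *NRP2*, with 140 and 139 fragments (0.19). *SEMA6A* had 54 and 39 (-0.27) and *ROBO1* 40 and 39 (0.16). *PLXND1*, a semaphorin receptor gene, had 3 in each list.

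Of 26 autosomal MYC-regulated growth genes, 4 had a shoulder peak in sgCtrl and 5 in sgSNHG1, shares of 15.4% and 19.2% beside 16.2% and 12.0% of all genes. *CCND1*, which encodes cyclin D1, had 329 and 326 fragments (0.19), *MCM2*, a subunit of the replicative helicase, 123 and 74 (-0.53) and *PRDX3* 46 in both (0.2). *MCM4* had one of 57 in sgCtrl alone, and *NME1* and *E2F1* had one in sgSNHG1 alone. Of 80 cytosolic ribosomal protein genes, 12 and 9 had one, near the background shares of 16.2% and 12.0%, and *RPS15* had 118 and 109 fragments (0.08) and *RPL36* 110 and 78 (-0.3). Of 69 replication-dependent histone genes, 8 and 7 had one (11.6% and 10.1%, below the shares of all genes), with 147 and 137 fragments for *H4C11* (0.1), whose window has many genome copies, and 58 and 75 for *H2AC6* (0.57). Histone genes are short and clustered, so the gene to which a peak was assigned is uncertain.

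Among the genes with most shoulder peaks over both lists, *SEPTIN9*, *AGAP3*, *LSP1* and *MCF2L* were 41364 to 220028 bp long with 7 to 28 start sites, against a median length of 27701 bp for all protein-coding genes. *SEPTIN9*, a cytoskeletal GTPase gene, had 11 in sgCtrl and 8 in sgSNHG1. *AGAP3*, *LSP1* and *MCF2L* had 8 and 6 each. The highest *LSP1* peak of sgSNHG1 had 166 over 60, against 141 for its sgCtrl partner (0.43).

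The sequence under shoulder peaks was GC-rich, with CpG between promoter and distal peaks. The median GC content was 65.0% in sgCtrl and 65.3% in sgSNHG1, between the 69.3% of promoter peaks in both lists and the 62.3% and 62.0% of distal peaks. The observed to expected ratio of CpG was 0.372 and 0.395, against 0.756 and 0.768 at promoter, 0.353 and 0.377 at upstream flank and 0.316 and 0.324 at distal peaks. In all, 22.2% and 25.7% of windows were CpG-rich (a ratio of at least 0.6 at a GC content of at least 50%), against 71.6% and 74.8% at promoters and 12.9% and 14.0% at distal peaks. Shoulder peaks with a partner in the other list had more CpG, with a ratio of 0.412 against 0.329 without one in sgCtrl. The MYC E-box CACGTG was found in 8.17% of sgCtrl (7.38% to 9.03%) and 8.45% of sgSNHG1 shoulder windows (7.5% to 9.5%), against 6.49% and 6.24% of all autosomal peaks. Upstream flank windows held it in 7.51% (6.58% to 8.56%) and 6.5% (5.47% to 7.71%), with intervals that overlap those of the shoulder. CAGCTG was found in 29.7% and 28.2% against 27.8% and 26.0% of all, and in 31.1% and 29.2% of upstream flank windows. The GC box was found in 33.8% and 36.5% against 37.4% and 40.2%, AGATAA in 1.92% and 2.24% against 2.54% and 2.89%, and the AP-1 motif in 3.97% and 3.24% against 4.08% and 3.99%. For the GC box, promoter windows gave 61.2% and 61.5%, upstream flank windows 35.5% and 36.8% and distal windows 28.4% and 29.2%. CATCTG was found in 19.1% and 18.1% against 17.7% and 16.3%, and TAATTA in 0.258% and 0.568% against 0.638% and 0.759%. CCGGAAG was found in 3.8% and 4.31% against 3.78% and 4.19%. CCAAT was found in 15.1% of sgCtrl shoulder windows (14.1% to 16.2%), an interval that holds the share of all sgCtrl peaks, and in 14.1% of sgSNHG1 shoulder windows against 15.1% of all. The splice donor letters GGTGAGT were on the sense strand in 3.61% and 3.67% of shoulder windows, against 3.86% and 4.03% of all. Promoter windows held them there in 6.89% and 7.14%, upstream flank windows in 3.52% and 2.67% and distal windows in 2.71% and 2.47%.

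Shoulder peaks were fewer in sgSNHG1 on 21 of 22 chromosomes. The ratio was lowest on chromosome 4, at 0.523 (0.374 to 0.724, 111 and 58 peaks), where the ratio of all peaks was 0.579. On the other 21 chromosomes it ranged from 0.557 on chromosome 21 (61 and 34) to 1.27 on chromosome 18 (11 and 14, interval 0.537 to 3.1), with a median of 0.724. Without chromosome 4 the ratio over all was 0.708 (0.675 to 0.742). The chromosomes may differ in copy number between clones, and the part of this in the ratios was not tested. Windows of several genome copies made up 486 sgCtrl (11.4%) and 388 sgSNHG1 shoulder peaks (13.0%), with a ratio of 0.798 against 0.69 for the others.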

How the data were processed

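H3K27ac was measured by ChIP-seq in 2 sgCtrl and 2 sgSNHG1 samples. The authors trimmed reads with cutadapt, aligned them to GRCh38 with BWA, combined both replicates and called peaks with MACS2 at a p-value of 1e-06. The lists deposited by the authors give a fold enrichment (a ratio of summit to background) per peak. They also give −log10 p as the authors' peak caller wrote it, and the summit.

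Here peaks were placed by start sites of GENCODE release 44. Fragments and background were recovered assuming a pseudocount of 1 and a Poisson p, which gave whole numbers within 0.1 for 100.0% of peaks and within 0.001 for 99.55% and 99.57%. Computations ran in Python 3.11.15 with scipy 1.17.1 and pandas 2.3.3. A window of several copies had a median above 1 over 6 pieces of 30 bases. The computations were tested on simulated data.

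The members, lists and alternatives were chosen with earlier results of these data known. Named are the 5 highest shared and the 5 highest list-only shoulder peaks of each list, the 5 lowest and 5 highest ratios, the 5 genes with most peaks, the CRC genes and up to 4 genes of each other list. Other genes of the lists are named where a count rests on them, after their values were seen. 1 CRC gene, 1 of the genes with most peaks and 1 sequence are not reported here.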

Additional observations from a re-analysis of the deposited data

Results flagged for a closer look

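Chromosome X was used in no comparison. By the same rule it held 42 shoulder peaks in sgCtrl and 51 in sgSNHG1, a ratio of 1.21 (95% counting interval 0.791 to 1.87), so the larger number was in the sgSNHG1 list. Peaks of all classes there numbered 624 and 686, with promoter peaks at 335 and 395 and distal peaks at 232 and 223. The difference was not tested, since there is 1 list per group.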

How the results depend on the processing

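Of 58 values under alternative settings, 32 stayed within the counting interval of the reported value and 26 moved outside it. None of the ratios or log2 medians changed direction, while the shares have no direction to change. Of the 32, 2 could not move, the sgSNHG1 share and downstream to upstream ratio when the sgCtrl list alone was reduced. With only peaks of a −log10 p of at least 10, the ratio of shoulder peak numbers was 0.638, the sgSNHG1 share 5.62%, the overlapped share of sgCtrl 50.8% and the median log2 ratio -0.15. With the sgCtrl list reduced to the size of the sgSNHG1 list, the ratio was 0.932, the sgCtrl share 6.5%, and the overlapped shares 64.8% and 72.0%. With 1 start site per gene, the ratio was 0.746, the shares 4.97% and 4.73%, the downstream to upstream ratios 2.03 and 2.04, the overlapped share of sgCtrl 58.2% and the median -0.07. With peaks within 500 bp merged, the shares were 6.32% and 5.68% and the sgSNHG1 downstream to upstream ratio 1.5. With shared meaning 50% of both peaks, the overlapped shares were 42.7% and 60.5%, and within 500 bp 60.7% and 85.4%. The median was -0.38 relative to shared promoter peaks. The alternatives chosen after seeing the data gave a median of -0.26 relative to the lowest background and, without windows of several genome copies, an overlapped share of sgSNHG1 of 81.4% and a median of -0.15. Placing summits in place of midpoints, or leaving out chromosomes 4 and 9 and chromosome 2 from 15 to 17 Mb, moved no value outside its interval. No paired analysis was possible because each list pools both of its samples, and neither sample could be left out. The depth per sample is unknown, and a peak absent from 1 list may lie below its threshold there.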
